A study of Mus musculus with 32 samples.

Results

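The wild type (WT) dorsal telencephalon, the part of the embryonic forebrain that becomes the cerebral cortex, was compared between E14.5 and E16.0 (E, embryonic day). The comparison rested on 8 of the 32 libraries of the series, 4 titled E14.5 and 4 titled E16.0, chosen by their titles and not by any measured value. The mice were C57BL/6J, and each library came from the tissue of 1 embryo, 2 males (M1, M2) and 2 females (F1, F2) at each stage, with no treatment and no transgene in the labels. The protocols in the labels state that the medial wall, which holds the primordium of the hippocampus, was dissected off, that the tissue was dissociated fresh, and that 3′ libraries were made with the v2 droplet chemistry of 10x Genomics. A companion group of Chd8+/- embryos (Chd8 het), which carry 1 intact copy of the gene of the chromatin remodeller Chd8, came from the same litters and was used as a second set of libraries over the same stages. The unit of measurement is the unique molecular identifier (UMI), which marks 1 captured RNA molecule. All UMIs of barcodes with at least 1000 UMIs and 500 detected genes were summed per library, which kept 35076 barcodes of the 143705 kept in the whole series.

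In the dorsal telencephalon, radial glia line the ventricle and act as neural stem cells. They give rise to neurons directly or through intermediate progenitors, which divide in the subventricular zone. Neurons of the deep layers are born first and those of the upper layers later, and new neurons migrate along the fibres of radial glia past the older ones. Subplate neurons and Cajal-Retzius cells are among the earliest born, inhibitory interneurons migrate in from the ventral forebrain, and the making of astrocytes and oligodendrocytes starts after most neurons have been born. The interval studied here lies in the part of cortical development in which upper-layer neurons are made.

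The libraries held between 22651028 and 38741494 kept UMIs at E14.5 and between 21526605 and 33815407 at E16.0. Since each library is 1 embryo, p-values below measure the spread between embryos and whatever differed between their preparations. Barcodes were deeper at E14.5, with a median of 7545 ± 1401 UMIs (SD, n = 4 libraries) against 5615 ± 328 at E16.0 (exact two-sided permutation test, p = 0.0286, the smallest that 4 against 4 libraries can give). Any 2 of the 8 libraries shared between 10 and 50 barcode sequences, at most 1.02% of the smaller library. Barcodes in which at least 3 genes of 1 list of globins, red blood cells, interneurons, vessels, microglia, meninges or choroid plexus were detected made up 21.7% ± 11.1 of a library at E14.5 and 8.27% ± 0.169 at E16.0 (exact permutation p = 0.0286), and globin transcripts alone marked 25.4% of barcodes in E14.5 M2 and 25.3% in E14.5 F1 but 1.67% in E14.5 F2. Their part in the results was not tested beyond leaving those barcodes out. They were counted without thinning, at the unequal depths given above, and the part of depth in these shares was not tested. The shares for all the lists together ran from 8.63% to 32.8% at E14.5 and from 8.07% to 8.43% at E16.0. Of the markers of the labelled tissue, Emx1 of the dorsal lineage stood between 127 and 219 CPM and Tbr1 of its neurons between 87.7 and 199 CPM in the 8 libraries (CPM, a level for which the UMIs of a gene are divided by the TMM-scaled total of the library, with TMM the trimmed mean of M-values). Gad2, a marker of interneurons, which come from the ventral forebrain, stood at 11.4 ± 4.28 CPM at E14.5 and 8.65 ± 4.36 CPM at E16.0 (SD, n = 4).

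**Figure D1:**
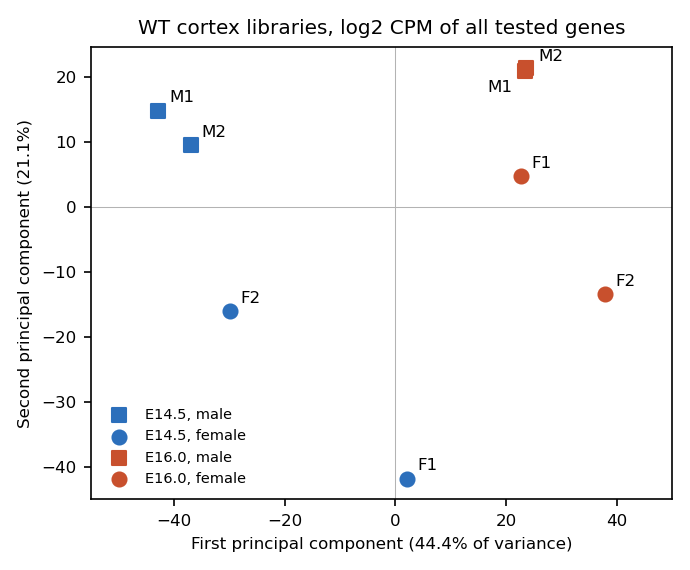
First and second principal components of log2 CPM over all tested genes for the 8 WT libraries, with blue for E14.5, orange for E16.0, squares for males and circles for females. The E14.5 libraries other than F1 lie at −42.8, −37.0 and −29.9 on the first component and the E16.0 libraries between 22.8 and 37.9, while E14.5 F1 lies between them at 2.01.

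Library E14.5 F1 stood apart from the other libraries of its stage. On the first principal component, which held 44.4% of the variance, E14.5 F1 lay at 2.01, the other E14.5 libraries between −42.8 and −29.9, and the E16.0 libraries between 22.8 and 37.9. The label descriptions give the E14.5 males codes that begin with rm and every other WT library here a code that begins with c, E16.0 males c6 and E16.0 females c7, with no statement of what a code means. Sex and code therefore cannot be told apart, and stage cannot be told apart from whatever the codes record. Counts of list members are given with and without E14.5 F1 below.

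Of 14738 genes tested, 1274 (8.64%) were higher at E16.0 and 904 (6.13%) were lower, together 2178 or 14.8%, by edgeR's quasi-likelihood test at a Benjamini-Hochberg adjusted p under 0.05 over all genes. Among these, 452 rose and 117 fell by 2-fold or more (3.07% and 0.794% of genes tested, 3.86% together). The median log2 fold change of all tested genes was 0.02. Without E14.5 F1 the number of called genes was 5188 (34.7%), with 2639 higher (17.6%) and 2549 lower (17%), and without the other libraries it was 909 (E14.5 M1), 737 (E14.5 M2), 1053 (E14.5 F2), 791 (E16.0 M1), 711 (E16.0 M2), 1466 (E16.0 F1) and 1332 (E16.0 F2). A core of 567 genes was called in each of these 8 fits. Scaling by library totals in place of TMM moved the median by 0.15 and turned the split to 2754 higher (18.7%) and 241 lower (1.64%), so that 92.0% of calls were higher against 58.5% with TMM.

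**Figure D2:**
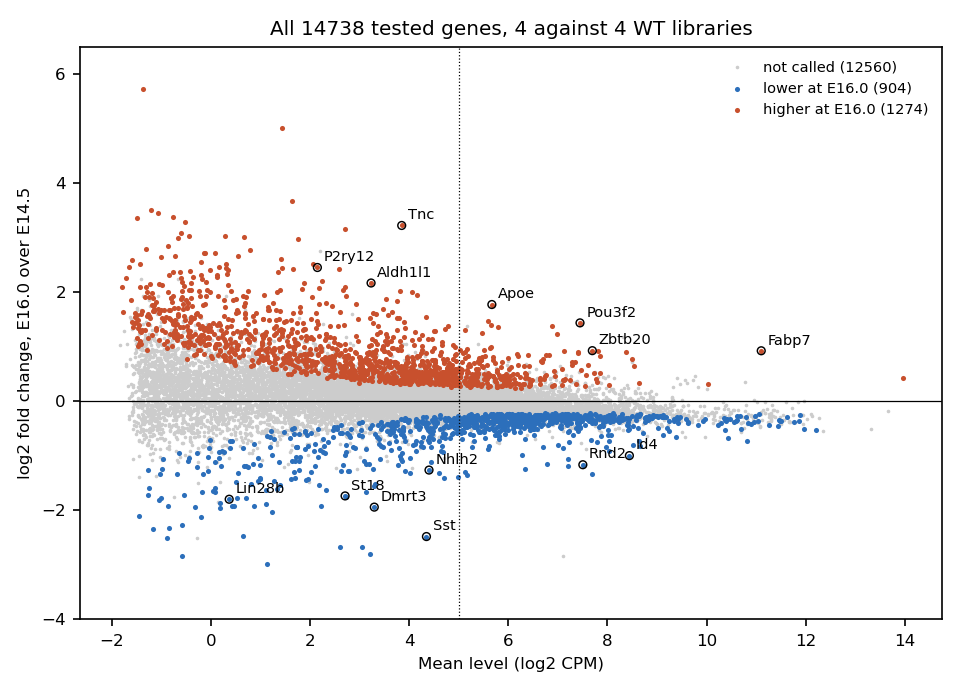
Mean level in log2 CPM (x axis) against log2 fold change of E16.0 over E14.5 (y axis) for each of the 14738 tested genes, with orange for the 1274 called higher, blue for the 904 called lower and grey for the rest; the dotted line marks a log2 CPM of 5. Labelled genes are among those described in the text, with Tnc and Apoe far above zero and Sst far below it.

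The 15 largest rises of called genes at a log2 CPM of 5 or more, averaged over libraries, included transcription factors of upper-layer neurons, receptors and radial glia genes. Pou3f2 (also called Brn2), a POU-domain factor of upper-layer neurons and late progenitors, stood in M1, M2, F1 and F2 at 78.3, 97.5, 117 and 83.5 CPM at E14.5 and at 251, 228, 292 and 247 CPM at E16.0. The 2 groups were far apart, and the log2 fold change was 1.44 ± 0.13 (SE, edgeR, adjusted p = 0.000736). Zbtb20, a zinc finger repressor of late progenitors and upper-layer fates, stood at 134, 148, 158 and 131 CPM at E14.5 and at 247, 245, 273 and 320 CPM at E16.0. Its log2 fold change was 0.93 ± 0.10 (edgeR, adjusted p = 0.00166). Apoe, the lipid carrier of radial glia, astrocytes and microglia, rose from 13.7, 17.1, 34.5 and 27.1 CPM to 99.6, 67.0, 84.1 and 63.2 CPM, with a log2 fold change of 1.77 ± 0.27 (edgeR, adjusted p = 0.0047). The lowest E16.0 library was above the highest E14.5 library for each of these 3 genes, as for 11.8% of all tested genes.

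Grin2b, an NMDA receptor subunit, was a further member of the group, with a log2 fold change of 0.99 ± 0.11. Ptprz1, a receptor phosphatase of radial glia, rose by 1.23 ± 0.12, from 76.1 ± 13.8 CPM to 178 ± 7.78 CPM (SD, n = 4 per stage). The pentraxin Ptx3 rose by 1.25, the ubiquitin-conjugating enzyme gene Ube2ql1 by 1.36, the scaffold gene Slc9a3r1 by 1.30, the actin-binding Lima1 by 0.98, Rnf180 by 0.95 and Palmd by 0.93 on the log2 scale. Ptx3 lies within the span of Veph1, which is read from the opposite strand and also rose, and use of strand in counting is not given in the sources used here. Each gene of this paragraph was called in all 8 fits that left out a library.

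A further 3 of the 15 rested on fewer libraries. The heterochromatin protein gene Cbx3 had 66.2, 75.8, 50.5 and 67.7 CPM at E14.5 and 245, 229, 117 and 89.3 CPM at E16.0. At E16.0 the male libraries, from 1 code, stood above the female libraries, from another. Its call was lost in 3 of the 8 fits (highest adjusted p = 0.059). The adaptor gene Sla and the long noncoding RNA gene Gm26917 also lost theirs in 3 of 8, with adjusted p values up to 0.0572 and 0.0625.

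The 15 largest falls at that level ran from −1.35 to −0.84 on the log2 scale. Cabp1, the largest of them, a neuronal calcium-binding protein, stood at 58.5, 52.4, 28.5 and 66.8 CPM at E14.5 and at 22.7, 21.1, 23.7 and 13.1 CPM at E16.0, with no overlap between stages and a log2 fold change of −1.35 ± 0.25 (edgeR, adjusted p = 0.0109). Rnd2, which is needed for the migration of newborn cortical neurons, fell by 1.17 ± 0.18 on the log2 scale, from 251 ± 58.0 CPM to 112 ± 20.0 CPM. The neighbouring gene Vat1 overlaps Rnd2 on the opposite strand and fell by 1.24 ± 0.17. Islr2 (also called Linx), a membrane protein of growing axons, fell by 1.18 ± 0.20. Cdkn1c, which encodes the cell cycle inhibitor p57, fell from 199 ± 48.0 CPM to 95.4 ± 19.6 CPM, a log2 change of −1.06 ± 0.20. Rprm, Cntfr, Lmo1, Tmem176b and the immediate early gene Ier2 had log2 fold changes of −0.91, −0.89, −0.86, −0.99 and −0.84, and the genes named so far in this paragraph were called in all 8 fits that left out a library.

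The other 5 falls included the next largest after Cabp1, Hist1h2bc and Ppp1r14c, and 2 of the 5 were histone genes. Hist1h2bc stood at 344, 437, 163 and 238 CPM at E14.5 and at 132, 125, 107 and 107 CPM at E16.0, with the male libraries above the female ones at E14.5, and was called in all 8 fits (log2 fold change −1.33 ± 0.25). Hist1h1c (−1.16) lost its call in 2 fits, with an adjusted p of up to 0.0584. Ppp1r14c (−1.31), Sult4a1 (−0.84) and Id4 (−0.9997), an inhibitor of basic helix-loop-helix factors, lost theirs in 6, 5 and 5 fits, with adjusted p up to 0.11, 0.0848 and 0.0813. For Id4 the E14.5 libraries ranged from 277 to 688 CPM and overlapped the highest E16.0 library at 310 CPM. All 30 genes kept their direction in males alone, in females alone and without E14.5 F1. Those fits reuse libraries by which the genes were picked, so the kept direction is no independent support. In females alone 0 genes were called.

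Lists of genes that mark cell types or processes were then read member by member, against the shares of all tested genes called higher (8.64%) and lower (6.13%). Counts of members from another fit are read against the shares of that fit, which were 17.6% higher and 17% lower without E14.5 F1 and 18.7% higher and 1.64% lower with library totals. In bulk sums of this kind, fewer cells of a type and less RNA per cell cannot be told apart.

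**Figure D3:**
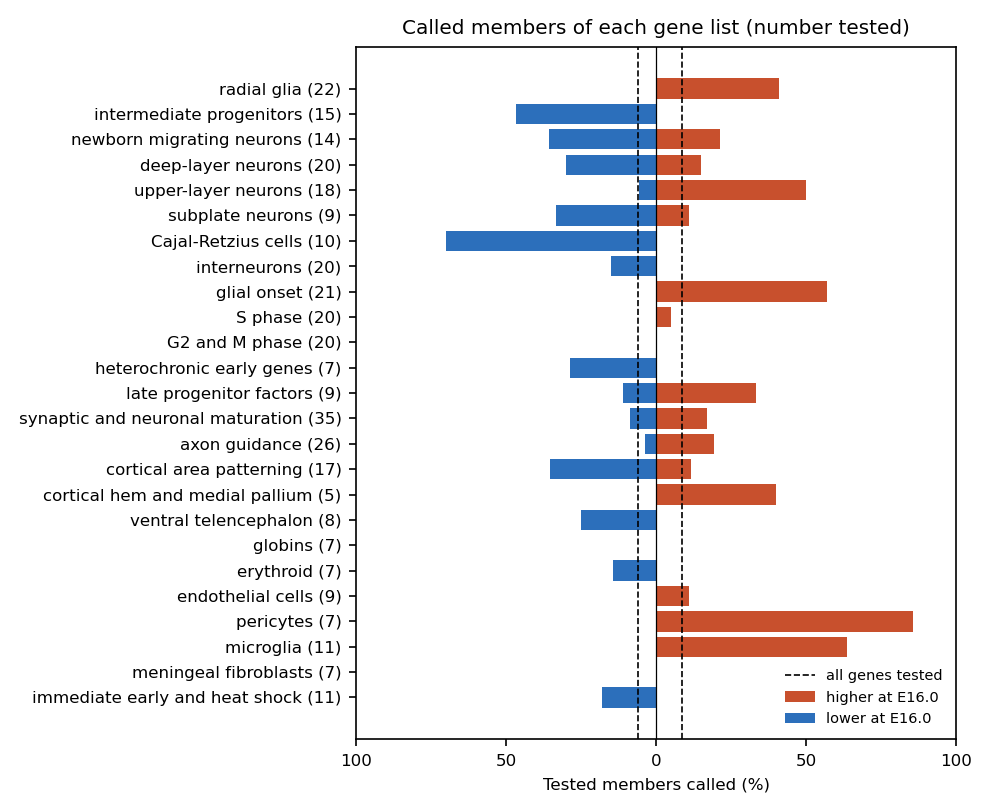
Share of the tested members of each list that was called higher (orange, to the right) or lower (blue, to the left) at E16.0, with the number tested in brackets; the dashed lines mark the shares of all tested genes, 8.64% higher and 6.13% lower. Lists of microglia, pericytes, glial onset and upper-layer neurons extend to the right, and those of Cajal-Retzius cells and intermediate progenitors to the left.

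Of 22 radial glia genes tested, 9 rose and 0 fell, and their median log2 fold change was 0.44 against 0.02 over all tested genes (14 higher and 0 lower without E14.5 F1). Tnc, an extracellular matrix glycoprotein of the germinal zones, stood at 1.02, 1.42, 7.16 and 2.15 CPM at E14.5 and at 23.4, 29.0, 17.45 and 33.6 CPM at E16.0. E14.5 F1 was the highest library of its stage, yet the stages did not overlap, and the log2 fold change was 3.22 ± 0.53 (edgeR, adjusted p = 0.0064), or 4.08 without E14.5 F1. Hopx, a homeodomain protein of outer and late radial glia, rose by 1.74 ± 0.24 from 2.51 ± 0.633 CPM, and Veph1 by 1.26 ± 0.20 from 10.3 ± 2.36 CPM. The glutamate transporter Slc1a3 rose by 0.91 and lost its call without E14.5 F2 (adjusted p = 0.0518). The fatty acid binding protein Fabp7 had 1021, 1293, 2241 and 1507 CPM at E14.5 and 2632, 3113, 2191 and 3571 CPM at E16.0. E14.5 F1 exceeded E16.0 F1, and the call (log2 fold change 0.92) was lost in 6 of 8 fits, with an adjusted p of up to 0.0806. Pax6, Sox2 and Hes5, regulators of the stem cell state, had log2 fold changes of 0.25, −0.28 and −0.46 and did not pass the test (edgeR, adjusted p = 0.387, 0.139 and 0.0908). Without E16.0 F2, Sox2 and Hes5 passed it at −0.39 and −0.65 (edgeR, adjusted p = 0.0488 and 0.0215).

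Of 15 genes of intermediate progenitors, 7 fell and 0 rose, with a median of −0.28 (10 lower and 1 higher without E14.5 F1). With scaling by library totals 3 were called lower and 1 higher. Gadd45g, a growth arrest gene, fell from 560, 592, 422 and 498 CPM to 279, 306, 223 and 365 CPM. The groups did not overlap, and the log2 fold change was −0.82 ± 0.15 (edgeR, adjusted p = 0.0109). Neurog1, a proneural factor, fell by 0.80 ± 0.16 on the log2 scale, from 22.0 ± 4.88 to 12.7 ± 1.31 CPM. Dll1, a ligand of Notch, and Rgs16 fell by 0.66 and 0.73 and lost their calls in 5 and 6 of 8 fits (adjusted p up to 0.0884 and 0.0724). Eomes (Tbr2), the factor that defines these cells, had 157 ± 15.8 CPM at E14.5 and 179 ± 14.1 CPM at E16.0, a log2 fold change of 0.18 that did not pass the test (edgeR, adjusted p = 0.182). Neurog2, which drives neurogenesis in the dorsal telencephalon, and Insm1, which promotes the formation of basal progenitors, had log2 fold changes of −0.11 and 0.42 (edgeR, adjusted p = 0.526 and 0.0668), and Insm1 was called at 0.54 without E14.5 F1 (adjusted p = 0.00792).

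Among 14 genes of newborn migrating neurons, 5 fell and 3 rose (6 and 3 without E14.5 F1). The falls were led by the helix-loop-helix genes Nhlh1 and Nhlh2, which are switched on as progenitors leave the cell cycle. Nhlh2 stood at 35.2, 29.8, 27.1 and 26.8 CPM at E14.5 and at 12.4, 13.1, 11.5 and 12.7 CPM at E16.0, with a wide gap between the stages and a log2 fold change of −1.26 ± 0.11 (edgeR, adjusted p = 0.000736). Nhlh1 fell by 1.28 ± 0.14, from 21.4 ± 3.71 to 8.80 ± 0.926 CPM. The 3 members that rose code for guidance molecules of migrating neurons. The netrin receptor gene Unc5d rose by 0.79 ± 0.15 and was called in all 8 fits that left out a library, whereas Sema3c (0.57) and Plxna2 (0.39) lost their calls in 6 of 8 (adjusted p up to 0.0907 and 0.102). The RefSeq sequence that precedes the annotated start of Nhlh2 is shown because the gene had one of the smallest p-values among the falls, with capitals for 2 short motifs that were searched on both strands, CAGATG, an E-box letter string, and GTGGGAA, the letter string of the Notch effector RBPJ. It covers chr3:102009895-102010075 on the plus strand of GRCm38.p6 and ends at the base before the first GENCODE transcript.

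Nhlh2: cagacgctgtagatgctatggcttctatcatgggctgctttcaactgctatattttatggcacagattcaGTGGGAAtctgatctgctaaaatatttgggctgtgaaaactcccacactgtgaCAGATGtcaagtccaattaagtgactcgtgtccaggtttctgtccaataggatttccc

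The motifs were chosen with the results known, and both strands were read. Of 11077 tested genes with a RefSeq promoter, 9.74% held CAGATG and 5.58% held GTGGGAA in the 250 bases before the start, against 10.2% and 6.06% of the 726 of them called lower and 10.6% and 5.72% of the 909 called higher. The letters ACAAAG, ATGCAAAT and CAGCTG were searched in the same way and stood in 11.8%, 1.27% and 11.7% of promoters of tested genes, in 10.6%, 0.551% and 12.4% of those called lower, and in 12.7%, 1.87% and 13.9% of those called higher. A match describes letters only.

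Of 20 genes of deep-layer neurons, 6 fell and 3 rose, with a median of −0.22 (8 lower and 3 higher without E14.5 F1). Tbr1, the T-box factor of layer 6 neurons, stood at 199, 173, 199 and 183 CPM at E14.5 and at 118, 125, 115 and 87.7 CPM at E16.0, without overlap. Its log2 fold change was −0.76 ± 0.11 (edgeR, adjusted p = 0.00396). Bcl11b (Ctip2), the zinc finger factor of layer 5 neurons that project below the cortex, fell by 0.83 ± 0.18, from 321 ± 40.1 to 180 ± 43.9 CPM. Rprm, named above among the largest falls, is a layer 6 marker and went from 342 ± 76.7 to 182 ± 26.5 CPM. Fezf2, which acts upstream of Bcl11b, had a log2 fold change of −0.71 and lost its call in 7 of 8 fits (adjusted p up to 0.0822), and Wnt7b (−0.80) lost its call in 6 (up to 0.0648). The layer 5 gene Crym was at −1.22 and missed the threshold (edgeR, adjusted p = 0.0528), which it passed without E14.5 F1 (−1.45, adjusted p = 0.00921). The 3 members that rose were Tle4, Crim1 and Etv1, at 0.67 ± 0.13, 0.71 ± 0.12 and 0.82 ± 0.19. Etv1 lost its call in 4 fits (adjusted p up to 0.0636). Tle4, a corepressor, Crim1, a membrane protein, and Etv1, an ETS factor, mark layer 6 or layer 5 neurons at later ages.

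Of 18 upper-layer genes tested, 9 rose and 1 fell, with a median of 0.48 (11 higher and 2 lower without E14.5 F1). Besides Pou3f2, the nuclear receptor gene Rorb of layer 4 stood at 12.03, 13.5, 20.7 and 14.6 CPM at E14.5 and at 33.3, 39.2, 43.4 and 35.6 CPM at E16.0. The gap between the groups exceeded the spread within either, and the log2 fold change was 1.33 ± 0.16 (edgeR, adjusted p = 0.00222). Pou3f3 (Brn1), which acts together with Pou3f2, rose by 0.84 ± 0.13, from 165 ± 31.7 to 295 ± 22.8 CPM. Cux1 rose by 0.46 and lost its call without E14.5 M1 or E14.5 M2 (adjusted p up to 0.0596), and Cux2 was at 0.40 without passing the test (edgeR, adjusted p = 0.2). The activin subunit gene Inhba rose by 1.05 and lost its call in 4 fits (adjusted p up to 0.0751). Tmem178, the member that fell (−0.39), lost its call in 5 (up to 0.0723).

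Among 9 subplate genes, 3 fell and 1 rose, with and without E14.5 F1. Their median log2 fold change was 0.14, and 6 of the 9 had a positive value, so the list did not move 1 way. St18, a zinc finger factor, fell from 11.6, 10.9, 8.89 and 8.42 CPM to 2.88, 2.45, 3.34 and 3.27 CPM, a clear separation with a log2 fold change of −1.74 ± 0.16 (edgeR, adjusted p = 0.000736). Nxph4, a secreted neurexin ligand, fell by 1.04 ± 0.14 from 21.8 ± 3.77 CPM. Nr4a2 was called at −0.72 but kept its call in 1 of 8 fits (adjusted p up to 0.108). Inpp4b rose by 1.35 ± 0.27 at under 1 CPM in every library.

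Of 10 Cajal-Retzius genes, 7 fell and 0 rose, with a median of −1.42, and the 7 remained the count without E14.5 F1. Reln, the extracellular signal of these cells, stood at 30.2, 27.3, 52.0 and 28.5 CPM at E14.5 and at 15.5, 13.99, 8.15 and 17.52 CPM at E16.0, with no overlap and a log2 fold change of −1.32 ± 0.26 (edgeR, adjusted p = 0.0132). The LIM homeobox genes Lhx5 and Lhx1 fell by 1.88 ± 0.34 and 1.87 ± 0.36, and Barhl2 by 1.96 ± 0.30. Calb2 (−1.64) lost its call in 5 of 8 fits (adjusted p up to 0.0584). The summed level of the list ran from 48.8 to 82.9 CPM at E14.5 and from 16.7 to 30.3 CPM at E16.0. In Chd8 het embryos 2 members fell and 1 rose, and in them Reln, Lhx5 and Lhx1 had log2 fold changes of −0.47, −0.65 and −0.68 that did not pass the test (edgeR, adjusted p = 0.339, 0.2 and 0.286). The difference between genotypes passed the test for none of these genes (edgeR, adjusted p = 0.99985 for each). That test was conservative, as described below, so its result does not show that the genotypes were alike.

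Of 20 interneuron genes, 3 fell and 0 rose (6 lower without E14.5 F1, and 1 lower with scaling by library totals, where all genes had 17% and 1.64% called lower). Sst, the neuropeptide somatostatin, stood at 46.8, 44.7, 12.7 and 33.2 CPM at E14.5 and at 5.62, 7.54, 7.27 and 4.03 CPM at E16.0. Even E14.5 F1, the lowest of its stage, was above every E16.0 library, and the log2 fold change was −2.49 ± 0.37 (edgeR, adjusted p = 0.00413). Lhx6, the factor of interneurons from the medial ganglionic eminence, to which Sst cells belong, was at −0.78 and did not pass the test (edgeR, adjusted p = 0.14), with 7.59 ± 2.29 CPM at E14.5 and 4.40 ± 2.07 CPM at E16.0. The transcription factor gene Sp8 was called at −0.58 and lost its call in 5 fits (adjusted p up to 0.112). The 30 bases around the cAMP response element TGACGTCA before the RefSeq start of Sst, the classic element through which this peptide gene responds to cAMP, are shown with the element in capitals, at chr16:23890874-23890903 on the minus strand of GRCm38.p6.

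Sst: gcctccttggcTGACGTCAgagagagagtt

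The element starts 48 bases before the RefSeq start, and GENCODE places a start further upstream. Both strands read the same, since it is a palindrome, and it was found in 2.78% of the promoters of tested genes in 3.44% of those of genes called lower and in 1.87% of those of genes called higher.

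Of 21 genes of glial onset tested, 12 rose, 0 fell and 9 did not pass the test, with a median of 1.29, 11 of them by 2-fold or more (14 higher without E14.5 F1). Aldh1l1, an astrocyte enzyme of folate metabolism, stood at 2.37, 2.34, 4.85 and 4.21 CPM at E14.5 and at 14.47, 15.5, 9.30 and 21.99 CPM at E16.0, apart in every library, with a log2 fold change of 2.17 ± 0.31 (edgeR, adjusted p = 0.0034). Egfr, the receptor gained by late progenitors, rose by 2.37 ± 0.31 from 0.19 ± 0.0721 to 0.988 ± 0.158 CPM. Sparcl1, a matrix protein of astrocytes, rose by 1.29 ± 0.12. Olig2, a factor of the oligodendrocyte lineage, rose by 1.33 ± 0.25, from 1.73 ± 0.651 to 4.37 ± 0.241 CPM. Pdgfra, the growth factor receptor of oligodendrocyte precursors, had 0.444, 0.0615, 0.0961 and 0.499 CPM at E14.5 and 1.00, 1.23, 0.997 and 0.841 CPM at E16.0. It was called at 1.80 ± 0.47 and lost the call in 4 of 8 fits (adjusted p up to 0.0905). Olig1 and Sox10, also of that lineage, had log2 fold changes of 2.75 and 2.24 and did not pass the test (edgeR, adjusted p = 0.0596 and 0.0528). At E14.5, library F2 reached 3.21 CPM for Olig1 and 0.343 CPM for Sox10, and without it both were called, at 4.21 and 4.31 (edgeR, adjusted p = 0.0285 and 0.0103).

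Among 20 S phase genes 1 rose and 0 fell, and among 20 genes of G2 and M phase 0 rose and 0 fell by edgeR. In lists of this size these counts are near the 8.64% and 6.13% of all genes. Without E14.5 F1 3 and 5 were higher, where 17.6% of all genes were, so that the 3 of 20 are near the background too. Mki67 and Top2a, which mark dividing cells, had log2 fold changes of 0.58 and 0.46 (edgeR, adjusted p = 0.0919 and 0.126), and without E14.5 F1 they were called at 0.82 and 0.68 (adjusted p = 0.00601 and 0.00832). The S phase gene called was Slbp, which encodes the protein that binds histone mRNA, at 0.74, and it kept the call in 1 of 8 fits (adjusted p up to 0.123).

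Genes tied to developmental timing fell in part. Of 7 early heterochronic genes 2 fell and 0 rose (3 lower without E14.5 F1). Lin28b, the RNA-binding protein that blocks let-7 maturation, stood at 2.35, 2.12, 1.01 and 2.00 CPM at E14.5 and at 0.765, 0.497, 0.587 and 0.265 CPM at E16.0, so that E14.5 F1 was nearest to the later stage. Its log2 fold change was −1.80 ± 0.33 (edgeR, adjusted p = 0.0101). Igf2bp2, an RNA-binding protein of early progenitors, fell by 0.54 and lost its call in 3 fits (adjusted p up to 0.0657), and Hmga2, a chromatin protein of young stem cells, was at −0.63 without passing the test (edgeR, adjusted p = 0.107). Among 9 late progenitor factors 3 rose and 1 fell, with and without E14.5 F1, namely Pou3f2, Zbtb20, Pou3f3 and, downward, Id4. The nuclear factor I genes Nfia and Nfix, which promote gliogenesis, had log2 fold changes of −0.31 and 0.14 (edgeR, adjusted p = 0.185 and 0.515).

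Of 35 genes of synapses and neuronal maturation, 6 rose and 3 fell, with a median of 0.03. The counts were 7 higher and 6 lower without E14.5 F1, and 10 higher and 2 lower with scaling by library totals. Those that rose included channels and receptors. Scn2a, a voltage-gated sodium channel of axons, stood at 8.14, 7.72, 9.03 and 6.99 CPM at E14.5 and at 21.6, 25.7, 25.5 and 13.9 CPM at E16.0, without overlap, with a log2 fold change of 1.45 ± 0.19 (edgeR, adjusted p = 0.00264). Gria2, the AMPA receptor subunit that limits calcium entry, rose by 0.89 ± 0.13 from 233 ± 12.9 CPM. Mef2c, a factor of maturing neurons, rose by 0.90 and lost its call without E14.5 F2 or E16.0 M2 (adjusted p up to 0.0521). Slc17a7 (VGLUT1), the vesicular glutamate transporter, went the other way, with 19.1 ± 5.13 CPM at E14.5 and 9.10 ± 2.28 CPM at E16.0 (log2 fold change −1.07 ± 0.23), and lost its call without E14.5 F2 (adjusted p = 0.0506). Syn2, a synaptic vesicle protein, fell by 0.93 and lost its call in 6 fits (adjusted p up to 0.078). The growth cone gene Gap43 was at −0.52 and missed the threshold (edgeR, adjusted p = 0.0524), which it passed without E14.5 F1 (−0.64, adjusted p = 0.0104).

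**Figure D4:**
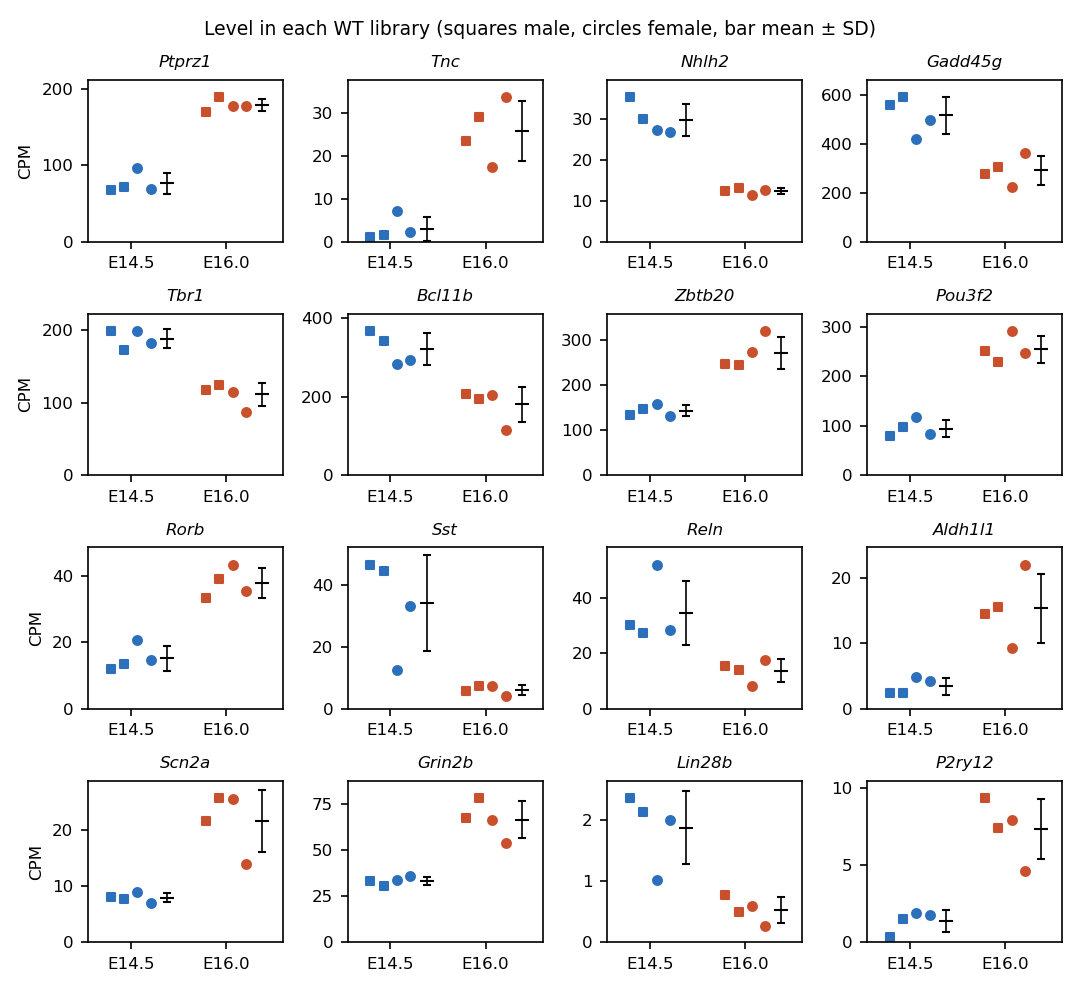
Level in CPM, scaled by TMM, of 16 genes in each WT library, blue for E14.5 and orange for E16.0, squares for males and circles for females in the order M1, M2, F1, F2, with the mean ± SD (n = 4) at the right of each group. The 16 genes were picked among called genes, and the 2 stages do not overlap in any of the panels. Of all tested genes, 11.8% were higher and 10.2% lower at E16.0 without overlap. E14.5 F1 lies nearest to the E16.0 values in several panels, such as Sst and Lin28b.

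Of 26 axon guidance genes, 5 rose and 1 fell (7 and 2 without E14.5 F1, against 17.6% and 17% of all genes, and 9 and 1 with library totals, against 18.7% and 1.64%). Plxnd1, a semaphorin receptor, fell from 10.2, 7.44, 10.5 and 10.5 CPM to 4.32, 3.48, 3.55 and 4.51 CPM, clear of each other, with a log2 fold change of −1.29 ± 0.16 (edgeR, adjusted p = 0.00213). It was −2.27 without the barcodes in which at least 3 genes of 1 list of globins or other cell types were detected. The secreted repellent Sema3a rose by 0.67 ± 0.13. The Slit receptor Robo1 was called at 0.70 and lost the call in 6 fits (adjusted p up to 0.115).

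Of 17 genes that pattern cortical areas, 6 fell and 2 rose (7 and 2 without E14.5 F1, 3 and 2 with library totals). Dmrt3, a doublesex-related factor of medial and caudal cortex progenitors, stood at 20.5, 18.1, 7.88 and 15.2 CPM at E14.5 and at 4.12, 5.11, 2.698 and 4.16 CPM at E16.0, with no overlap and a log2 fold change of −1.95 ± 0.29 (edgeR, adjusted p = 0.00413). Emx1, which marks the whole dorsal lineage, fell by 0.55 ± 0.10, from 203 ± 24.6 to 139 ± 8.91 CPM. The 2 that rose were the ETS factor genes Etv5 (0.91) and Etv1, with Etv5 losing its call in 6 fits (adjusted p up to 0.0853). Of 5 genes of the cortical hem and medial pallium, Zbtb20 and Bmp7 rose with and without E14.5 F1, Bmp7 by 1.51 ± 0.23 from 1.07 ± 0.362 CPM. The median of the 5 was −0.28, and 3 of them had a negative value. Of 8 ventral telencephalon genes, the neuropeptide genes Tac1 (−2.33) and Penk (−1.32) were called lower, and they lost their calls in 6 and 7 fits (adjusted p up to 0.0941 and 0.104). The median of the 8 was 0.21, and 5 of them had a positive value. Without E16.0 F1, Tac1 stood at −3.33, and without E14.5 F1 the list had 2 higher and 2 lower. The level of Tac1 was very low at E16.0, at 0.381 CPM in F1 and from 0.0584 to 0.0885 CPM in the other libraries.

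Of 11 microglia genes 7 rose and 0 fell (8 higher without E14.5 F1), with a median of 1.64. Barcodes with at least 3 of the genes were few. In M1, M2, F1 and F2 they numbered 1, 2, 7 and 7 at E14.5 and 22, 15, 29 and 8 at E16.0. P2ry12, a purine receptor that defines microglia, stood at 0.339, 1.51, 1.87 and 1.78 CPM at E14.5 and at 9.32, 7.42, 7.89 and 4.65 CPM at E16.0, far apart, with a log2 fold change of 2.45 ± 0.41 (edgeR, adjusted p = 0.00652). Trem2 and Csf1r, receptors of microglia, rose by 2.42 ± 0.44 and 2.06 ± 0.37. Of 7 pericyte genes 6 rose and 0 fell (6 without E14.5 F1), among them Higd1b by 1.78 ± 0.27. Cspg4 and Pdgfrb rose by 1.41 and 1.16, and Cspg4 lost its call without E16.0 M2 and Pdgfrb without E14.5 M2 (adjusted p = 0.0505 and 0.0542). Cspg4 also stands in the glial onset list. Of 9 endothelial genes 1 rose, Ly6c1 by 1.90 ± 0.34, and without E14.5 F1 8 rose. The level of Ly6c1 was very low at E14.5, at 0.384 CPM in F1 and from 0.156 to 0.185 CPM in the other libraries. Cldn5, a tight junction gene of vessels, had 19.3, 9.23, 44.4 and 7.14 CPM at E14.5, with E14.5 F1 the highest, and 66.1, 37.2, 46.2 and 56.6 CPM at E16.0. Its log2 fold change of 1.38 was not called (edgeR, adjusted p = 0.0948), and it was 2.09 and called without E14.5 F1 (adjusted p = 0.00476).

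The summed level of the microglia list ran from 13.8 to 58.1 CPM at E14.5 and from 54.5 to 126 CPM at E16.0, and that of pericytes from 35.7 to 49.5 and from 64.2 to 122 CPM. These rises move with that of Apoe, which microglia also express. Apoe kept its call in 19 of 20 alternative fits, among them the one that left out the barcodes described next. The part of microglia and pericytes in the rise of Apoe was not tested further. Leaving out the barcodes with at least 3 genes of 1 of the lists of globins, interneurons and other non-cortical cells left 2201 genes called against 2178 with them. Of these, 1813 were called in both, and 455 against 569 genes were called with a 2-fold change. Of the named genes still tested without those barcodes, 6 lost their call. Any that fell below the filter on low counts was not counted as lost. Over all 20 alternatives, P2ry12, Trem2, Csf1r and Higd1b were tested in 19 each, and Ly6c1 and Cspg4 in 18 each. At E14.5 globin genes marked 904 barcodes in M2 and 805 in F1, where erythroid genes marked 46 and 26. Whether barcodes with globin RNA were red blood cells or other cells was not tested. In the alternatives below, barcodes of other cell types means all that met this rule. Of 7 globin genes, 0 rose and 0 fell, and their summed level ran from 975 to 8178 CPM at E14.5 and from 2678 to 5213 CPM at E16.0. Of 7 meningeal genes 0 rose and 0 fell by edgeR, and without E14.5 F1 1 rose and 2 fell. Of 11 immediate early and heat shock genes, 2 fell and 0 rose (7 lower without E14.5 F1). They were Ier2 and the chaperone gene Hsp90aa1, and Hsp90aa1 (−0.39) kept its call in 1 of 8 fits (adjusted p up to 0.112).

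To set the number of barcodes with a transcript beside these sums, each barcode of at least 2000 UMIs was thinned to 2000. The share with at least 1 UMI was then taken for 9 genes. Thinning left out 63, 161 and 10 shallower barcodes of E16.0 M2, F1 and F2 and 0 of each E14.5 library. Barcodes with Tbr1 made up 27.4%, 24.4%, 26.0% and 25.5% of the E14.5 libraries and 22.1%, 24.8%, 20.4% and 18.2% of the E16.0 libraries. E16.0 M2 lay above E14.5 M2, so that the stages overlapped, and the difference of −4.46 percentage points did not pass the test (exact two-sided permutation test, p = 0.0571; 0.257 after Benjamini-Hochberg adjustment over the 9 genes). Thinned to 1000 UMIs, the shares of Tbr1 ran from 15.1% to 16.3% at E14.5 and from 10.6% to 14.7% at E16.0 without overlap (exact permutation p = 0.0286, adjusted 0.129). In barcodes with at least 3 of 8 interneuron genes, which should lack Tbr1, 18 of 637 (2.83%) and 18 of 481 (3.74%) had a UMI at median depths, before thinning, of 3679 to 6128 and 3143 to 3450 UMIs per library, so that the background was below the measured shares at both stages. An adjusted p cannot go below 0.05 here for a single gene among 9.

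Fezf2 was found in 30.2% ± 4.37 and 23.1% ± 4.20 (exact permutation p = 0.143, adjusted 0.321), against 2.35% and 4.37% in the interneuron barcodes. The shares for Pax6, 22.7% ± 3.43 and 26.2% ± 6.90, and for Eomes, 16.8% ± 1.27 and 18.3% ± 2.12, overlapped between the stages (exact permutation p = 0.457 and 0.257), and in the interneuron barcodes they were 6.59% and 11.9% for Pax6 and 2.20% and 3.95% for Eomes. Mki67 was found in 4.69% ± 1.29 and 7.10% ± 1.72 (exact permutation p = 0.0857), and in the interneuron barcodes in 1.26% and 4.78%, so that no change is read from its share. Neurod2 and Neurod6, of postmitotic excitatory neurons, were found in 54.5% ± 8.75 and 64.5% ± 4.98 of barcodes at E14.5 and in 57.6% ± 5.25 and 64.6% ± 6.00 at E16.0 (exact permutation p = 0.6 and 1). In the interneuron barcodes the shares were 5.65% and 11.02% for Neurod2 and 10.4% and 13.9% for Neurod6. Sox2 was found in 39.1% of the interneuron barcodes at E14.5 and 36.8% at E16.0, above its shares of 17.4% ± 1.49 and 15.2% ± 2.42 in all barcodes, so that these barcodes give no background for it. Without thinning, the shares of Tbr1 and Fezf2 differed by −13.2 and −16.0 percentage points, at the unequal depths given above.

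The same step was measured in Chd8 het embryos, whose libraries share no sample with the WT libraries but come from the same litters. There 1054 of 14785 tested genes (7.13%) rose and 576 (3.9%) fell, together 1630 or 11%. Of these 1085 were also called in WT, 49.8% of the WT calls and 66.6% of the het calls, and all 1085 had the same direction. Without het library E14.5 F1 the het count was 3838, and without 1 of the other 7 it ran from 570 (without E14.5 M2) to 1323. The test of the difference between the 2 stage effects called 0 of 15245 genes with edgeR (123 at an unadjusted p under 0.05) and 0 with DESeq2. Those 123 genes are a smaller share than the 0.05 that chance alone would give, and the fit held no term for litter. The test was thus conservative, and its 0 calls do not show that the stage effects were alike. Of the 30 genes with the largest changes in WT, all 30 had the same direction in het embryos and 27 were called there. Gm26917 (0.59), Ppp1r14c (−0.91) and Sult4a1 (−0.63) were the 3 that missed the threshold (edgeR, adjusted p = 0.127, 0.0648 and 0.0662). Tnc and Sst had log2 fold changes of 3.30 and −2.58 in het embryos beside 3.22 and −2.49 in WT.

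**Figure D5:**
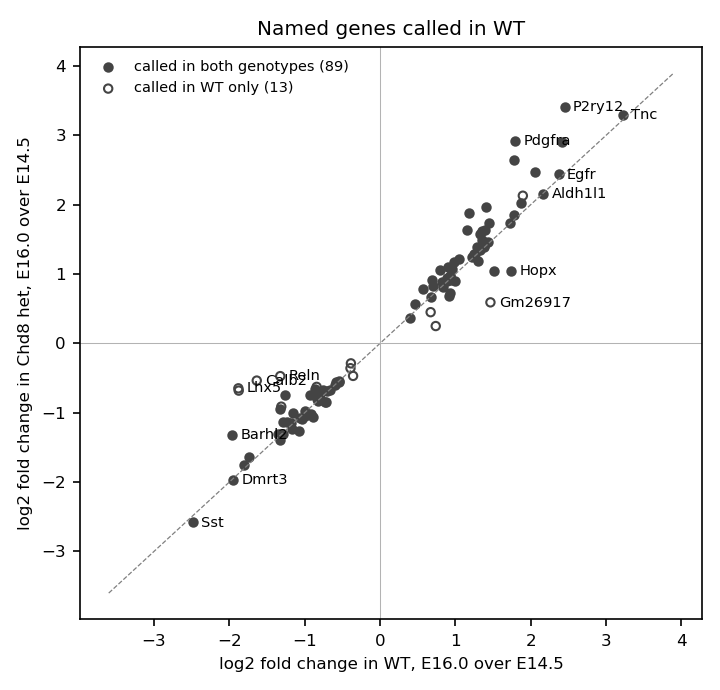
Log2 fold change of E16.0 over E14.5 in WT (x axis) and in Chd8 het embryos (y axis) for the 102 named genes that were called in WT and tested in both, with filled points for the 89 called in both genotypes and open points for the 13 called in WT alone; the dashed line marks equal values. All 102 points have the same sign in both genotypes, and Lhx5 and Calb2 lie between the dashed line and zero.

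The neighbouring steps in WT share the E14.5 or the E16.0 libraries with this comparison, so that their values stand beside it without a test of likeness. From E12.5 to E14.5, 8859 of 15015 tested genes (59%) were called, 30.5% higher and 28.5% lower, and from E16.0 to E17.5, 1786 of 14427 (12.4%), 5.48% higher and 6.9% lower. Pou3f2 had log2 fold changes of 1.74, 1.44 and 0.79 over the 3 successive steps, all called. Cabp1 was higher at E14.5 than at E12.5 (2.33), lower at E16.0 than at E14.5 (−1.35) and at −0.27 in the last step, which did not pass the test (edgeR, adjusted p = 0.39). Rnd2 had 1.40, −1.17 and −0.21, with the last again not called (edgeR, adjusted p = 0.625). Sst rose by 6.80 from E12.5, fell by 2.49 in the step studied here and was at 0.60 in the last without passing the test (edgeR, adjusted p = 0.126). Lin28b fell by 1.65 and 1.80 in the first 2 steps and was at 0.02 in the last (edgeR, adjusted p = 0.985). Dmrt3 fell in all 3, by 2.08, 1.95 and 2.67, and Id4 by 1.42, 0.9997 and 1.16. Reln had 1.28, −1.32 and 1.68, each past the threshold, so that this gene was lower at E16.0 than at both E14.5 and E17.5.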

How the data were processed

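The series holds droplet RNA libraries from 32 embryos, of which the 8 WT libraries of E14.5 and E16.0 are reported here. The authors deposited raw UMI counts per gene and barcode, whole numbers without normalization. Per the submitters' processing notes, mm10, Cell Ranger, STARsolo and STAR 2.7.9a were used, with no role or order given; cell calling and the use of strand: not given in the sources used here. Gene positions come from GENCODE M21 (GRCm38), in which 99.8% of identifiers were found.

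Barcodes with at least 1000 UMIs and 500 genes were kept (145082 before filtering in 32 libraries), doublets and free RNA were not removed, and counts were summed per library. edgeR 4.0.16 (TMM, filterByExpr, robust quasi-likelihood fit of 4 against 4 libraries, no covariate) tested each gene, with Benjamini-Hochberg adjustment over all genes and a call at an adjusted p under 0.05. CPM are scaled by TMM. The standard error of a log2 fold change is its size divided by the square root of F. The script was tested on simulated data. Each library is 1 embryo and 1 replicate, 4 per group. Counts of 2 libraries of a group differed by 9.82 to 114 times sampling noise (chi-square per degree of freedom), so none was a duplicate. Shares of barcodes were compared by exact permutation over libraries.

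Named genes are the 15 largest changes each way among called genes with mean log2 CPM of at least 5, up to 4 called members each way of each of 26 lists (364 genes), and other members named for their role. The members and lists were chosen with earlier results of these data known, so that no count of theirs is independent support. Alternatives were DESeq2 1.42.0, other scaling, no filter, sex, a replicate block, leaving out each library or barcodes of other cell types, thinning, at most 10% mitochondrial UMIs, and all 32 libraries in 1 fit. Some items are not reported here; counts over lists and over all genes include them. Scaling by library totals and fits of 1 sex were chosen after seeing the data.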

Additional observations from a re-analysis of the deposited data

Results flagged for a closer look

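In groups of 4 libraries, a library was singled out where its gap to the nearest other library exceeded Dixon's 95% critical share of the group's range. This was computed for 272 groups, of which chance gives about 1 in 20, and 20 met it, 9 of them through E14.5 F1 and 5 through E16.0 F2. On the first principal component E16.0 F2 lay at 37.9 and the other E16.0 libraries between 22.8 and 23.6.

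At E14.5, library F1 stood above the others for Ptprz1 (96.6 CPM), Slbp (32.8), Sema3a (12.9), Ly6c1 (0.384), Cux2 (29.7), Nfia (569) and Reln (52.0), and below them for Sla (20.4) and Nxph4 (16.1). Each of these values lies toward the E16.0 mean except those of Sla, Nfia and Reln. M2 was low for Plxnd1 (7.44 CPM) and F2 high for Sox10 (0.343 CPM), where the other E14.5 libraries held at most 0.048 CPM.

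At E16.0, library F2 was high for Id4 (310 CPM) and Lhx1 (0.708 CPM) and low for Bcl11b (115 CPM) and Trem2 (2.74 CPM). F1 was high for Inhba (9.97 CPM) and Tac1 (0.381 CPM) and low for Neurog1 (10.7 CPM) and Bmp7 (2.698 CPM).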

How the results depend on the processing

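The number of genes called in WT was 2178. It was 3609 with DESeq2, 640 with the replicate name as a block, 6656 with males alone and 0 with females alone (1737 at an unadjusted p under 0.05; 2 against 2 libraries), and leaving out each library gave 711 to 5188. Of genes called with a 2-fold change there were 569, against 305 with the replicate block, 366 after thinning, 1092 in males alone, 0 in females alone and 330 to 921 when each library was left out. In het embryos 1630 were called, 2692 with DESeq2, 956 with the replicate block and 570 to 3838 when each library was left out. The difference between genotypes gave 0 in every fit, the block of the matched pair included. At an unadjusted p under 0.05 it gave 123 of 15245 genes in the main fit and 582 with that block. Both are smaller shares than the 0.05 that chance alone would give. Same-named WT libraries of the 2 stages correlated at −0.0984 to 0.256 in their deviations and differently named ones at −0.359 to 0.441. The names thus do not pair samples across stages. Across stages, male with male libraries correlated at 0.197 to 0.256 and female with female ones at −0.0984 to 0.441. Pairs of a male and a female library correlated at −0.359 to 0.0508. Sex and code cannot be told apart in this.

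Of 103 named genes called in WT, 0 changed direction in those of 20 alternatives in which they were tested (2042 values, as some low genes were not tested in each). A gene not tested in an alternative was not counted as lost there. The counts of lost calls below concern these 103 genes. Their calls were lost for 29 with the replicate block, 12 with library totals, 13 without a filter, 10 with all 32 libraries, 6 after thinning, 6 without barcodes of other cell types, 3 in males alone and 103 in females alone, and for 0 without E14.5 F1, 25 without E14.5 M1, 30 without E14.5 M2, 26 without E14.5 F2, 26 without E16.0 M1, 32 without E16.0 M2, 16 without E16.0 F1 and 15 without E16.0 F2. Calls with a higher level made up 47.2% with DESeq2, 50.04% with RLE factors, 47.8% with all 32 libraries and 92.0% with library totals, against 58.5%.

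Neurog2, not called, turned to 0.0316 in females alone and to 0.0376 with library totals. The difference in shares, in percentage points, turned to −0.938 without thinning for Pax6, and for Neurod6 to −1.96 at 1000 UMIs and −0.259 without thinning. Leaving out each library gave −2.17 to 2.73 for Neurod6 and −1.07 to 5.69 for Neurod2. No share passed 0.05 after adjustment under any setting, which 1 gene among 9 could not do; the smallest possible p (0.0286) was reached by 1 of the 9 genes at 2000 UMIs, by 2 at 1000 UMIs (Tbr1 among them) and by 3 without thinning (Tbr1 and Fezf2 among them).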

Other observations

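Families were gathered by gene symbol after the results had been seen, and their counts describe these libraries alone. Those described here are part of a larger set of families. The rest included families with shares of calls near or below those of all genes, and families with shares above them. Of 80 cytosolic ribosomal protein genes, 17 fell and 0 rose, with a median log2 fold change of −0.30, and of 38 proteasome subunits 18 fell and 0 rose, with a median of −0.25. Of 86 nuclear genes of oxidative phosphorylation 12 fell and 0 rose, where 6.13% of all tested genes were called lower. With scaling by library totals 2, 1 and 1 of these were called lower, where 1.64% of all tested genes were called lower. Without E14.5 F1 24, 30 and 26 were called lower and 0 higher, against 17% of all genes called lower. In Chd8 het embryos 9, 2 and 3 were called lower, against 3.9% of all genes, and 1 gene of oxidative phosphorylation was called higher.

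Of 63 cadherins and protocadherins 14 rose and 1 fell, with a median of 0.49. Of 28 collagens 9 rose and 0 fell, and of 61 potassium channel genes 12 rose and 3 fell, where 8.64% of all tested genes were called higher and 6.13% lower. Without E14.5 F1 the higher and lower calls of these 3 families were 21 and 3, 12 and 1, and 15 and 8, where 17.6% of all genes were called higher and 17% lower. With scaling by library totals, under which 92.0% of all calls were higher, the counts were 27 and 1, 10 and 0, and 16 and 3. In that fit 18.7% of all genes were called higher and 1.64% lower. In Chd8 het embryos the higher and lower calls of these 3 families were 10 and 4, 9 and 0, and 9 and 2, where 7.13% of all genes were called higher and 3.9% lower.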
